A study of Mus musculus with 4 samples.

Results

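The genes described here are 10 transcription factor genes of the epithelial-mesenchymal transition (EMT) and of mesenchymal identity. They were chosen by symbol and not by a rule on their values, though earlier results of these data were known. They are Snai1, Snai2, Twist1, Twist2, Zeb1, Zeb2, Prrx1, Prrx2, Tcf4 and Tcf21. Of the 10 genes, 9 were among the 15424 genes listed with an FPKM value (read fragments of a gene divided by its transcript length and by the number mapped in all), and all 9 passed the filter used below, a mean over both columns of 1 FPKM or more, as did 11650 genes in all. Tcf21 was not matched to a row by its symbol or an older symbol and is not analysed here. Tcf4 means the E protein gene (E2-2), not the Wnt effector Tcf7l2, for which the table gives the same name as a synonym.

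The study compared tumors grown from R728T1 cells with Taz knockdown (shTaz) and tumors grown from the same cells with a control shRNA titled shLuciferace (shLuc). In both groups the cells had been placed subcutaneously in nude mice, hosts without a thymus or mature T cells that keep their other cells. The labels call R728T1 non-SMCs, a term they do not spell out, give an Rb/P53 mouse model as its origin and name small cell lung cancer as the cell type. The labels list 2 samples in each group, 4 in all, and do not say how many animals they came from, the age or sex of the animals, the shRNA sequence or whether the cells were a clone.

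The table gave 1 value per gene and group, so none of the values below has an error, and no test between the groups could be made. Whether a value is a mean of 2 samples or comes from a joint estimate is not stated in the sources used here. The FPKM values summed to 427921 in the shTaz column and 501728 in the shLuc column. Wwtr1, which encodes TAZ, was at 15.1 FPKM in shTaz tumors, against 23.4 FPKM in shLuc tumors. Of the neuroendocrine markers reported here only Ncam1 (43.8 FPKM in shTaz tumors, 39.8 FPKM in shLuc tumors) and Uchl1 (1.51 and 10.1 FPKM in the same order) reached a mean of 1 FPKM. Syp and Insm1 were under 1 FPKM in both columns, and Neurod1, Chga and Calca were not matched to a row and are not analysed here, so the labelled cell type could be checked against few of its markers, with low and high levels among them.

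EMT is the change by which epithelial cells lose cell-cell junctions and polarity and take on a migratory, mesenchymal state. SNAIL proteins (Snai1, Snai2) and ZEB proteins (Zeb1, Zeb2) are zinc finger repressors that bind E-boxes in epithelial genes such as the E-cadherin gene Cdh1. TWIST proteins are basic helix-loop-helix (bHLH) factors that bind DNA as dimers, often with E proteins such as the product of Tcf4. PRRX proteins are homeodomain factors of embryonic limb and facial mesenchyme. Normal fibroblasts and other stromal cells also express many of these genes, so their RNA in a whole tumor can come from transplanted or from host cells.

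Twist2 and Twist1 encode closely related proteins, and of the 4 pairs of related genes theirs was the pair whose ratio differed most between the groups. A stretch of their coding sequence is printed to show how far the copies can be told apart by reads. It is the 150-base stretch with the most identical bases when the coding sequences are aligned without gaps at their 3′ ends, read from GENCODE M21 transcripts on GRCm38 (mm10), 5′ to 3′. Capitals mark the bases that differ between the copies.
Twist2: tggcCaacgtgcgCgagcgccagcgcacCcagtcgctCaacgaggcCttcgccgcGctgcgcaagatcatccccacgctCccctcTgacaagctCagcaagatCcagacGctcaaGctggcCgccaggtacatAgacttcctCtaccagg
Twist1: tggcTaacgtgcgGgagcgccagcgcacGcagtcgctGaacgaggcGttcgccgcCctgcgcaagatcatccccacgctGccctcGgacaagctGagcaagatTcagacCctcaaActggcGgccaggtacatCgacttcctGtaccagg
The Twist2 stretch lies in exon 1 at chr1:91801835-91801984 on the plus strand and the Twist1 stretch in exon 1 at chr12:33958324-33958473 on the plus strand. They shared 135 of 150 bases (90.0%), and over the 480 coding bases of Twist2 the shared portion was 69.2%. The longest run identical in both full transcripts was 23 bases. No window of 50 bases was shared, so a read of that length that matches either transcript exactly tells the pair apart. The longest shared runs were also 23 bases for Snai1 with Snai2 and for Zeb1 with Zeb2, and 17 bases for Prrx1 with Prrx2, and no window of 50 bases was shared by these pairs either.

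Twist2 had the largest difference of the 9 listed factors. It was at 0.983 FPKM in shTaz tumors, against 10.6 FPKM in shLuc tumors, so that the shTaz value was 9.26% of the shLuc value. Twist2, also called Dermo-1, is a bHLH repressor of dermal and other mesenchymal cells. On the scale log2((shTaz FPKM + 1) / (shLuc FPKM + 1)), used for all differences below, its difference was -2.55. A difference of 1 or more in size on this scale is called 2-fold throughout, so that a gene of low level can have FPKM values more than 2-fold apart and still fall short of it. Of the 11650 genes, 29 (0.249%) had a lower difference. Among the 4126 genes whose shLuc level was within a factor of 2 of that of Twist2, 20 others (0.485%) differed as much or more in the same direction. Twist2 (Entrez 13345) spans chr1:91801461-91848028 on the plus strand of mm10.

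Twist2 was the only listed factor with a 2-fold difference: 1 of 9 was lower by at least 2-fold and 0 of 9 were higher. Twist2 was under 1 FPKM in shTaz tumors and passed the filter through the shLuc column alone. This count is therefore partly set by the filter. Among all 11650 genes 7.21% differed 2-fold, 3.25% (379 genes) being lower and 3.96% (461 genes) higher. The count of 1 in 9 is therefore near what the background share gives, and the set as a whole did not stand apart by number. The median difference of the 9 factors was -0.01, and that of all genes 0.12. The background split moved with scaling, to 310 higher and 493 lower with median-ratio scaling, which brought the median of all genes to 0.00, and to 294 and 455 with quantile normalization.

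**Figure D1:**
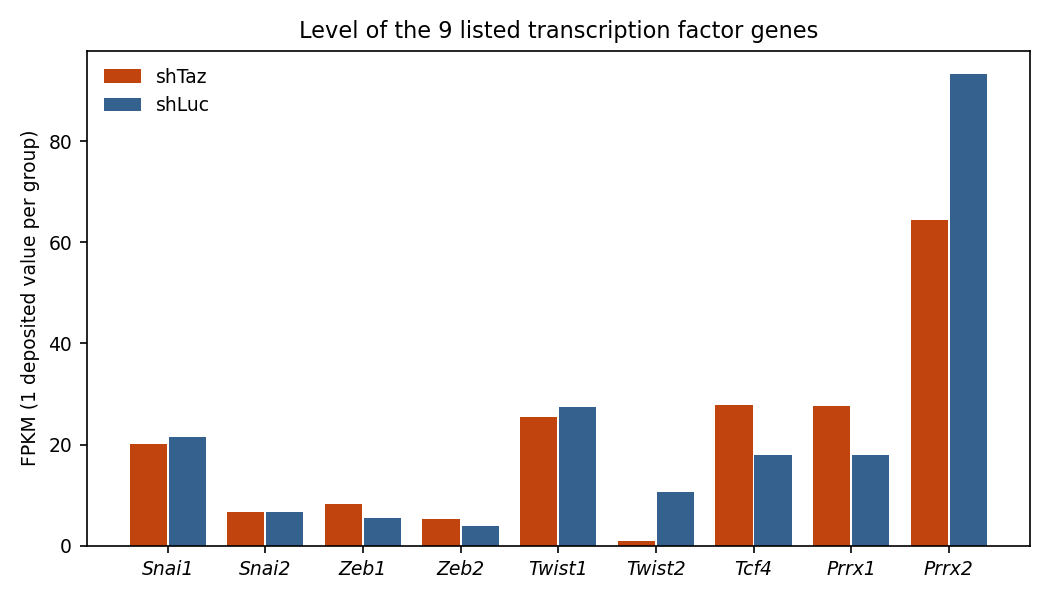
Level in FPKM (linear axis from 0) of the 9 listed factors in shTaz tumors (left bars) and shLuc tumors (right bars), 1 deposited value per gene and group, with no error bars because there are no replicate values. Prrx2 was the most abundant in both groups, and Twist2 was at 0.983 FPKM in shTaz tumors, against 10.6 FPKM in shLuc tumors.

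Twist1 showed no such difference. This bHLH factor of cranial mesoderm and neural crest was at 25.4 FPKM in shTaz tumors, against 27.5 FPKM in shLuc tumors, a difference of -0.11. FPKM is scaled to transcript length, so the levels of both genes are set side by side within a column. By its definition above it is not scaled to base composition, in which the transcripts differ (59.3% GC for Twist1, 52.6% for Twist2). The ratio of the levels does not move with the scaling of the columns. Twist1 was 25.9 times the level of Twist2 in shTaz tumors, against 2.59 times in shLuc tumors. Twist2 made up 3.72% of the summed FPKM of the pair in shTaz tumors, against 27.8% in shLuc tumors. The sum was 26.4 FPKM in shTaz tumors and 38.1 FPKM in shLuc tumors, and Twist1 supplied most of it in both. Twist1 (Entrez 22160) spans chr12:33957671-33959829, plus strand.

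The promoters of this pair, from 250 bases before to 50 bases after the annotated start, are printed because one gene differed and the other did not. They come from RefSeq (GRCm38.p6), whose table matched 7 of the 10 genes. Capitals mark matches of 3 motifs searched on both strands: the E-box CANNTG, the TEAD motif CATTCC and the CCAAT box CCAAT. TEAD proteins are the DNA-binding partners of TAZ.
Twist2, chr1:91801211-91801510, plus strand: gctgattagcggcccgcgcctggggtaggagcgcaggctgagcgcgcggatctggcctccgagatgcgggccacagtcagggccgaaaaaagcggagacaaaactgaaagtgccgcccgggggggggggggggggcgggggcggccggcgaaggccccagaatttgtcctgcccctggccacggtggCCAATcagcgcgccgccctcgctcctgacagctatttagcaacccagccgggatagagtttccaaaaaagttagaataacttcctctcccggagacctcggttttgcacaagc
Twist1, chr12:33957421-33957720, plus strand: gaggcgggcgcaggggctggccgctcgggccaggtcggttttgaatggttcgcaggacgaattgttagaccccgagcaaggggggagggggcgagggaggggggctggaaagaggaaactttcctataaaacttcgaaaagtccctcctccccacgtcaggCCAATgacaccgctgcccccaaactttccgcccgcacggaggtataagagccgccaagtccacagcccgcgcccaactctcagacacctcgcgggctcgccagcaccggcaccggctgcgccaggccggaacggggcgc
Both windows held 1 CCAAT box, and neither held a CANNTG or CATTCC match. Of all 32851 promoter windows of this length, 37.4% held CCAAT, 72.3% CANNTG and 14.7% CATTCC. The windows were alike in composition, with a GC content of 64.7% and 25 CpG dinucleotides for Twist2 and 66.0% and 27 for Twist1. The letters of these windows therefore gave no motif match by which the pair differed, and sequence outside them was not searched.

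**Figure D2:**
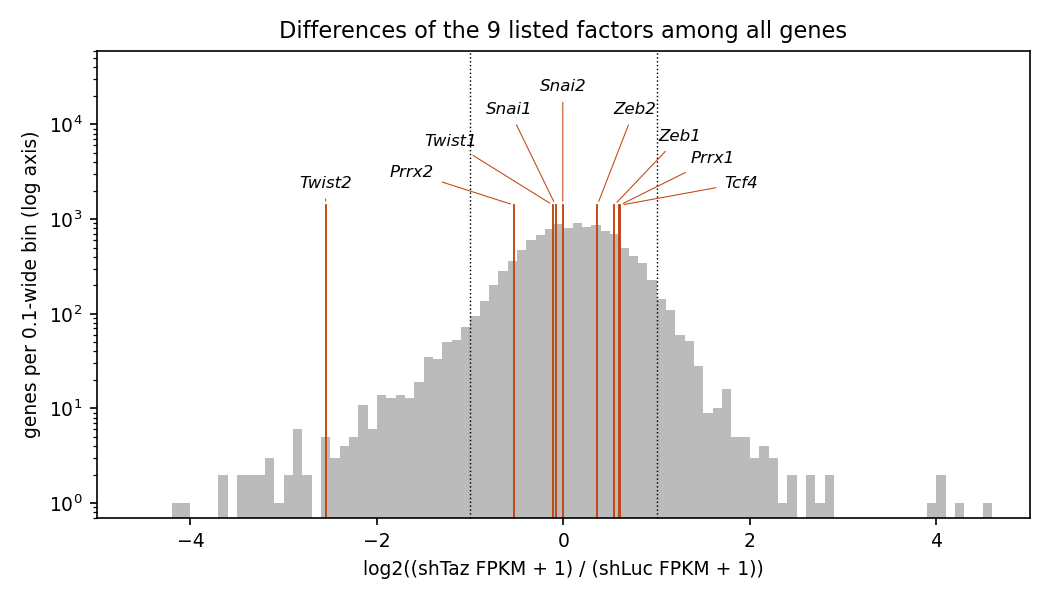
Number of genes (log axis, bins of 0.1) by log2 difference between shTaz and shLuc tumors for the 11650 genes that passed the filter, with vertical lines at the 9 listed factors and dotted lines at a 2-fold difference. Twist2 lies at -2.55, and the other 8 lie between -0.53 and 0.60.

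The SNAIL genes were nearly equal between the groups. Snai1 was at 20.1 FPKM in shTaz tumors, against 21.4 FPKM in shLuc tumors. Snai2, which encodes SLUG, was at 6.70 FPKM in shTaz tumors, against 6.74 FPKM in shLuc tumors. Their differences were -0.08 and -0.01, and 35.2% and 41.1% of the 11650 genes had lower ones. The ratio of Snai1 to Snai2 was 3.01 in shTaz tumors and 3.18 in shLuc tumors, so that the balance of the pair was almost the same in both. Snai1 (Entrez 20613) spans chr2:167538195-167542814 and Snai2 (Entrez 20583) chr16:14705852-14709385, both on the plus strand.

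The ZEB genes were higher in shTaz tumors by less than 2-fold, with Zeb2 turning lower once the trend with base composition described below was removed (-0.17). Zeb1 was at 8.34 FPKM in shTaz tumors, against 5.41 FPKM in shLuc tumors, a difference of 0.54. Zeb2 was at 5.22 FPKM in shTaz tumors, against 3.84 FPKM in shLuc tumors, a difference of 0.36. Such differences were common, as 80.1% of all genes had a lower difference than Zeb1 and 68.1% a lower one than Zeb2. Zeb1 exceeded Zeb2 in level by a factor of 1.60 in shTaz tumors and 1.41 in shLuc tumors. Zeb2 (Entrez 24136) spans chr2:44983632-45117395, minus strand.

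Tcf4, the E protein gene, was at 27.8 FPKM in shTaz tumors, against 17.9 FPKM in shLuc tumors. Its difference of 0.60 was the highest among the 9 factors, and 83.6% of all genes had a lower one.

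The PRRX genes went opposite ways in the deposited values, though not with the same trend removed (0.16 for Prrx1 and 0.02 for Prrx2), and neither differed 2-fold. Prrx1 was at 27.6 FPKM in shTaz tumors, against 17.9 FPKM in shLuc tumors, a difference of 0.60. Prrx2 was at 64.5 FPKM in shTaz tumors, against 93.2 FPKM in shLuc tumors, a difference of -0.53. Prrx2 was the most abundant of the 9 factors in both groups, above 94.5% of all listed genes in shTaz tumors and 95.7% in shLuc tumors. The ratio of Prrx1 to Prrx2 was 0.429 in shTaz tumors, against 0.192 in shLuc tumors, a log2 change of 1.16. That change does not depend on the scaling of the columns, but it does depend on the trend with base composition. With that trend removed the 2 genes had nearly the same difference, as given above. Prrx1 (Entrez 18933) spans chr1:163245119-163313710, minus strand, and Prrx2 (Entrez 20204) spans chr2:30834972-30881251, plus strand.

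By level, the order in shTaz tumors was Prrx2, Tcf4, Prrx1, Twist1, Snai1, Zeb1, Snai2, Zeb2 and Twist2. In shLuc tumors it was Prrx2, Twist1, Snai1, Tcf4, Prrx1, Twist2, Snai2, Zeb1 and Zeb2. With no replicate values it is not known which neighbors in these orders differ beyond their spread. Twist2 thus stood last of the 9 in shTaz tumors and in place 6 in shLuc tumors. Its level was above 24.3% of all listed genes in shTaz tumors and 70.9% in shLuc tumors. The 9 factors summed to 186.7 FPKM in shTaz tumors and 204.6 FPKM in shLuc tumors, of which Prrx2 supplied 34.5% and 45.6% in that order.

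The direction of the small differences followed the base composition of the transcripts. Across the 10635 of these genes with a GENCODE M21 transcript, the Spearman correlation between the difference and the GC content of the longest transcript was -0.56. This is a description across genes, which share the libraries and are not replicates. Over the 9 factors it was -0.70, and -0.71 over the 8 without Twist2. Tcf4 (40.9% GC), Zeb2 (40.6%), Prrx1 (43.6%) and Zeb1 (46.1%) lay in the GC-poor part and were higher in shTaz tumors. Prrx2 (63.6%), Snai1 (59.8%) and Twist1 (59.3%) lay in the last of 10 groups of genes ordered by GC content, whose median difference was -0.38, and were lower. Snai2 was unlike the others in having a GC-poor transcript (42.6%) and a difference near 0, where the median of its GC group was 0.47. Twist2, at 52.6% GC, lay in a group whose median difference was -0.03.

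**Figure D3:**
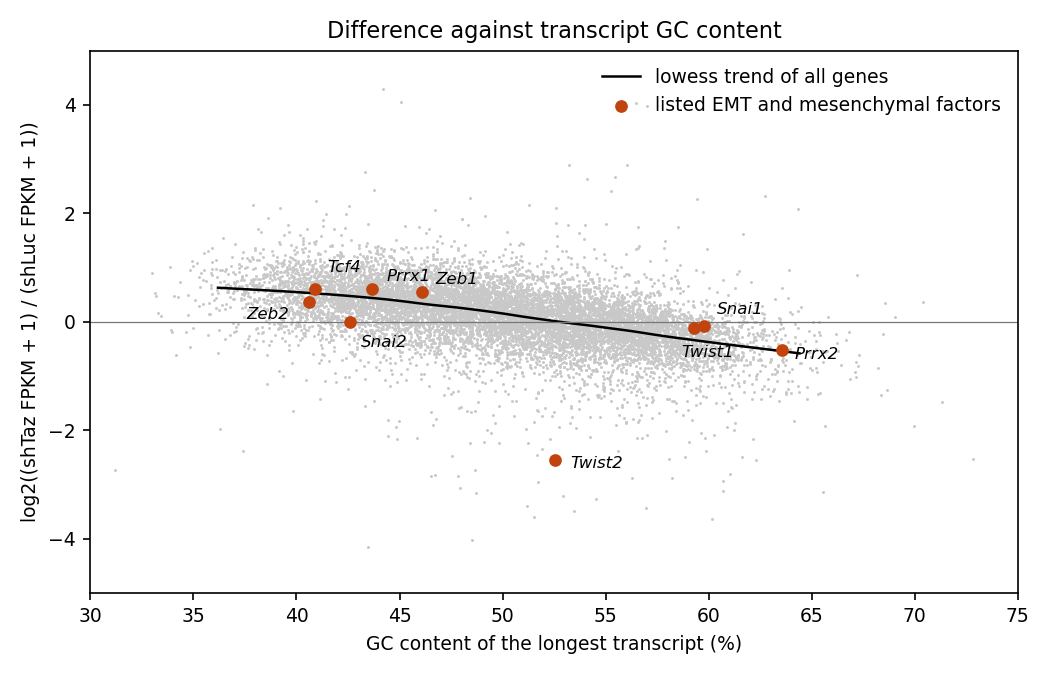
Log2 difference between shTaz and shLuc tumors (vertical axis) against the GC content of the longest GENCODE M21 transcript in percent (horizontal axis), with 1 point per gene, the trend of all genes as a line and the 9 listed factors as large points. Twist2 lies far below the trend at -2.55, and the other 8 factors lie close to it, from 0.28 above it to 0.48 below it (-0.48).

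With the GC trend removed, 8 of the 9 factors had differences between -0.48 and 0.28, Twist2 stayed at -2.56, and the median of the 9 was 0.08. The directions of 4 factors turned: Snai1 was at 0.28, Twist1 at 0.23, Prrx2 at 0.02 and Zeb2 at -0.17. Zeb1 (0.21), Prrx1 (0.16) and Tcf4 (0.08) stayed higher in shTaz tumors by smaller amounts, and Snai2 became the second lowest of the 9 at -0.48. With the length trend removed as well, Tcf4 was at -0.042, Zeb2 at -0.29 and Prrx2 at 0.17. Zeb1 and Prrx1 stayed above 0 but by little, at 0.086 and 0.034. No direction is therefore given for the 8 factors other than Twist2 beyond the deposited values. The part of base composition in their differences was not tested.

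**Figure D4:**
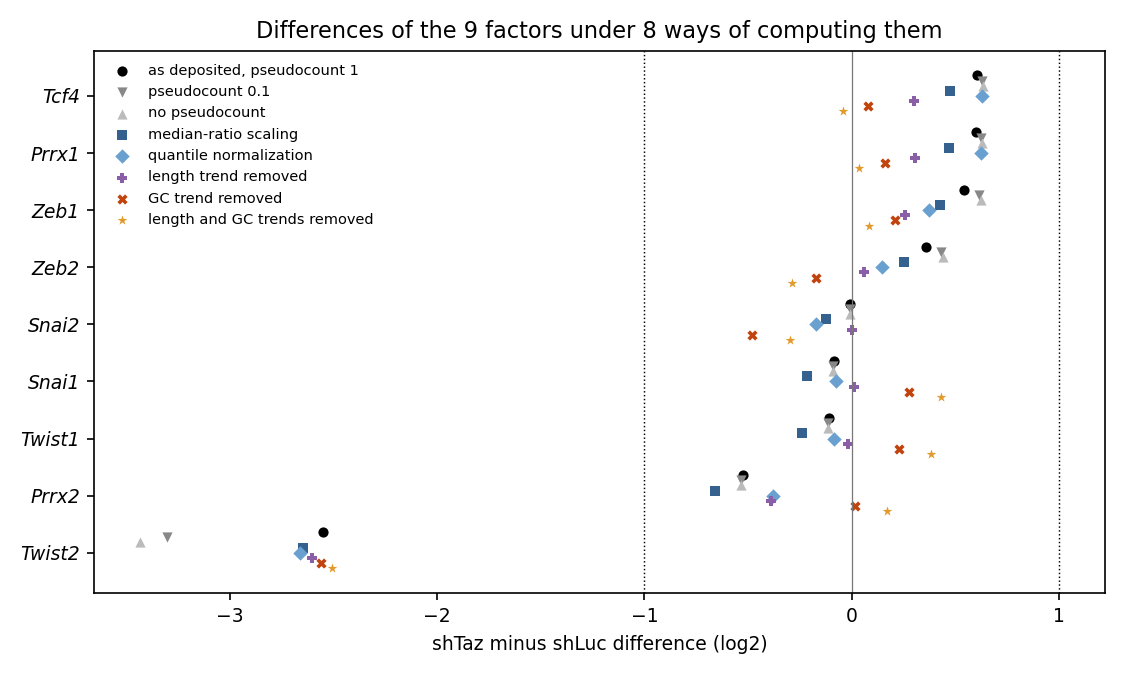
Difference in log2 units (horizontal axis, shTaz over shLuc) of each of the 9 listed factors under 8 ways of computing it, 1 symbol for each, with dotted lines at a 2-fold difference. Twist2 lies between -3.43 and -2.51 in all 8, while Snai1, Twist1, Prrx2, Zeb2, Tcf4 and Snai2 have values on both sides of 0.

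The bHLH partners and relatives of the TWIST proteins are the genes closest to these factors in mechanism. Of 6 E protein and Id genes, 5 reached a mean of 1 FPKM. Of the 5, 1 was 2-fold lower and 0 higher, beside 3.25% and 3.96% of all genes. The lower gene was Id3, which encodes an inhibitor that binds E proteins and keeps them from DNA. Id3 was at 36.5 FPKM in shTaz tumors, against 122 FPKM in shLuc tumors. The other E protein genes, named here after their values were seen, were Tcf3 at 25.5 FPKM in shTaz tumors, against 28.7 FPKM in shLuc tumors, and Tcf12 at 9.32 FPKM in shTaz tumors, against 5.66 FPKM in shLuc tumors. Id1 and Id2 were within 0.32 of 0 on the log2 scale, so Id3 was alone among the measured inhibitors in its size of difference. Of 9 tissue bHLH genes related to Twist2, 3 were matched to a row and 2 reached a mean of 1 FPKM. Both of these were 2-fold lower, beside 3.25% of all genes. Msc, which encodes musculin, was at 0.248 FPKM in shTaz tumors, against 8.21 FPKM in shLuc tumors. It passed the filter through the shLuc column alone, so the count of 2 is partly set by the filter. Scx, which encodes scleraxis, a factor of tendon cells, was at 18.8 FPKM in shTaz tumors, against 70.9 FPKM in shLuc tumors. With the GC trend removed, Msc (-2.60), Id3 (-1.58) and Scx (-1.42) were still past 2-fold.

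Among 16 other EMT-associated transcription factor genes, 8 reached a mean of 1 FPKM, with a median of 0.20. Of the 8, 2 were 2-fold higher and 0 lower, beside 3.96% and 3.25% of all genes. The forkhead gene Foxq1 was at 7.38 FPKM in shTaz tumors, against 2.27 FPKM in shLuc tumors. Foxf1, a forkhead gene of lung and gut mesenchyme listed as Foxf1a, was at 7.58 FPKM in shTaz tumors, against 2.36 FPKM in shLuc tumors. Of 10 corepressor genes of SNAIL and ZEB proteins none differed 2-fold on the log2(FPKM + 1) scale, and the median was 0.21. The largest differences in that list were those of the Polycomb genes Suz12 (7.56 FPKM in shTaz tumors, 3.50 FPKM in shLuc tumors, a ratio over 2 before the pseudocount) and Ezh2 (12.2 and 6.27 FPKM in the same order). Of 8 measured genes that act on the turnover of SNAIL and TWIST proteins none differed 2-fold on that scale, and 7 were higher in shTaz tumors, with a median of 0.63. Without the pseudocount, Fbxl5 and Fbxo45 were just over 2-fold higher, at 202% and 201% of the shLuc value. That list was led by the F-box gene Fbxl5 (7.63 FPKM in shTaz tumors, 3.77 FPKM in shLuc tumors) and the kinase gene Gsk3b (8.16 and 4.40 FPKM in the same order). Its median was 0.30 with the trends of length and GC content removed.

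The epithelial and mesenchymal genes listed here did not move as 1 block. Whether the factors act on them in these tumors was not tested. Of 18 epithelial genes 12 were matched to a row and 5 reached a mean of 1 FPKM. None of the 5 differed 2-fold on the log2(FPKM + 1) scale as deposited. Their median was 0.29, or -0.04 over the keratin genes Krt8 and Krt18 alone, which were those averaging 5 FPKM or more. Krt19, an epithelial keratin gene, was at 3.84 FPKM in shTaz tumors, against 1.85 FPKM in shLuc tumors (208% before the pseudocount). With the GC trend removed, the Krt19 difference was 1.01, just past 2-fold. Cdh1 was at 3.11 FPKM in shTaz tumors, against 2.09 FPKM in shLuc tumors. Of 13 mesenchymal structural genes, with a median of -0.29, 2 were 2-fold lower and 0 higher, beside 3.25% and 3.96% of all genes. Cdh11, a cadherin gene of mesenchymal cells, was at 1.91 FPKM in shTaz tumors, against 5.26 FPKM in shLuc tumors, and Col1a2, a collagen I chain gene, was at 138 FPKM in shTaz tumors, against 334 FPKM in shLuc tumors. Vim, which encodes vimentin and was named after its value was seen, was at 913 FPKM in shTaz tumors, against 1048 FPKM in shLuc tumors.

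**Figure D5:**
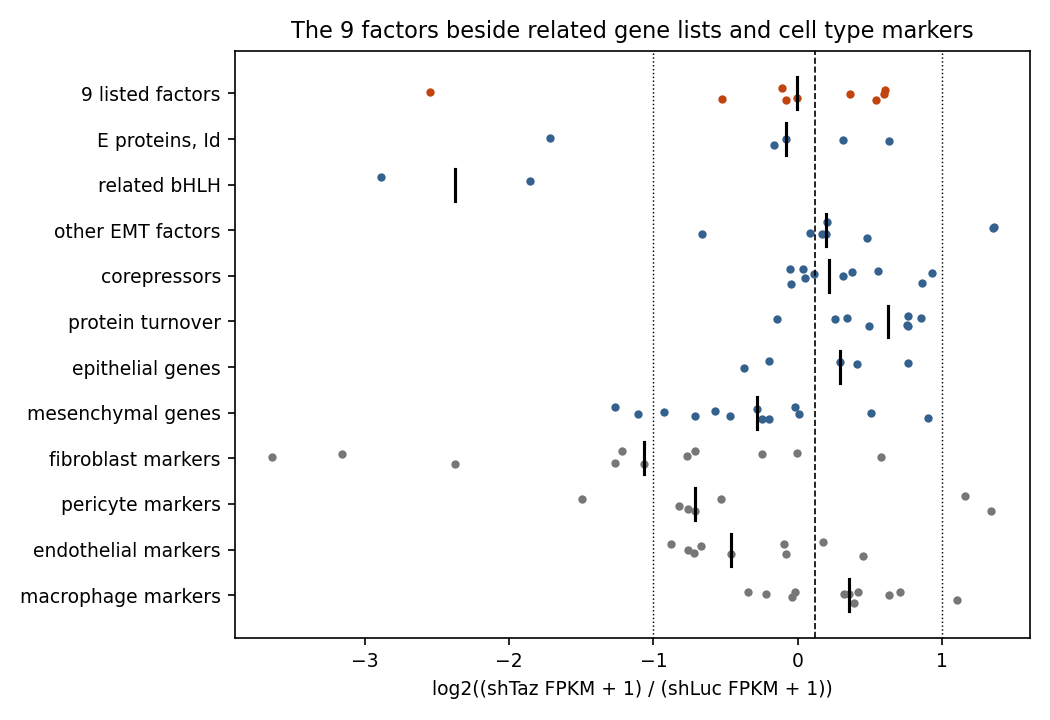
Log2 difference between shTaz and shLuc tumors (horizontal axis) of each gene that passed the filter, for the 9 listed factors, 7 related gene lists and 4 lists of cell type markers, with a bar at each list's median, a dashed line at the median of all genes (0.12) and dotted lines at a 2-fold difference. Msc, Scx, Id3 and Twist2 lie below -1.5, as do 3 fibroblast markers.

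Most, but not all, markers of fibroblasts were lower in shTaz tumors, as Twist2 was. Of 11 fibroblast markers that passed the filter, 6 were 2-fold lower in shTaz tumors and 0 higher, with a median of -1.07. Among all genes 3.25% were 2-fold lower and 3.96% higher. Clec3b, 1 of the 6, was at 0.335 FPKM in shTaz tumors, against 15.7 FPKM in shLuc tumors. It passed the filter through the shLuc column alone, so the count is partly set by the filter. Col1a1 and Col1a2 are in this list and also in that of the mesenchymal structural genes. The growth factor receptor gene Pdgfra was higher, at 13.5 FPKM in shTaz tumors, against 8.75 FPKM in shLuc tumors, and the proteoglycan gene Lum was at 3.02 FPKM in shTaz tumors, against 3.78 FPKM in shLuc tumors (both named after their values were seen). All 12 summed to 1392 FPKM in shTaz tumors and 2188 FPKM in shLuc tumors, with none at 0 and Fap under 1 FPKM in both. The collagen genes that make up most of this sum did not differ alike. Col1a1 was at 841 FPKM in shTaz tumors, against 1375 FPKM in shLuc tumors, whereas Col3a1 was at 371 FPKM in shTaz tumors, against 372 FPKM in shLuc tumors. Of 8 pericyte and smooth muscle markers 7 passed the filter, and Myh11 was under 1 FPKM in both groups. On the log2(FPKM + 1) scale 1 of the 7 was 2-fold lower (Notch3) and 2 higher (Rgs5 and Des), beside 3.25% and 3.96% of all genes. Notch3, under 1 FPKM in shTaz tumors, and Des, under 1 FPKM in shLuc tumors, each passed the filter through 1 column alone. By any amount 5 of the 7 were lower and 2 higher, with a median of -0.71. Before the pseudocount 3 of the 7 were 2-fold lower, with Kcnj8 at 41.6% and Cspg4 at 44.6% of the shLuc value beside Notch3 at 20.8%. The sum of all 8 was 70.5 FPKM in shTaz tumors and 99.0 FPKM in shLuc tumors, led by the contractile actin gene Acta2 (29.5 and 50.7 FPKM in the same order) and the receptor gene Pdgfrb (22.5 and 32.9 FPKM). The part of these cells in the values of Twist2, Msc, Scx and Id3 was not tested. In whole tumors, fewer cells of a type and less RNA per cell cannot be told apart.

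Markers of other cell types went in both directions. Among the neuroendocrine markers Uchl1, given above, had a difference of -2.14, near that of Twist2, and Ncam1 one of 0.14. Of 11 endothelial markers 9 passed the filter and none differed 2-fold. By any amount 7 of the 9 were lower and 2 higher, with a median of -0.46. All 11 endothelial markers summed to 113 FPKM in shTaz tumors and 169.9 FPKM in shLuc tumors. Plvap, Egfl7 and Cdh5 were the most abundant of them by the mean of both columns, and Tek and Vwf were under 1 FPKM in both. Of 11 macrophage markers 1 was 2-fold higher (Mertk) and 0 lower, beside 3.96% and 3.25% of all genes. Mertk was under 1 FPKM in shLuc tumors and passed the filter through the shTaz column alone. By any amount 7 of the macrophage markers were higher and 4 lower, and the median was 0.36. Their sums went the other way, at 3656 FPKM in shTaz tumors and 4180.3 FPKM in shLuc tumors, and were mostly those of the complement genes C1qa, C1qb and C1qc. Macrophages also express Zeb2, and their part in its value was not tested. Tcf4 is known from plasmacytoid dendritic cells, whose markers Siglech and Ccr9 were under 1 FPKM in both groups, while Bst2, which many cells express, was at 39.7 FPKM in shTaz tumors, against 69.4 FPKM in shLuc tumors. Skeletal muscle markers were higher, with 4 of 4 that passed the filter past 2-fold, beside 3.96% of all genes. Acta1, Ckm and Mylpf were under 1 FPKM in shLuc tumors and passed the filter through the shTaz column alone. The count is therefore partly set by the filter. All 6 muscle markers summed to 31.1 FPKM in shTaz tumors and 2.79 FPKM in shLuc tumors, with Acta1 and Myh4 at 0 in shLuc tumors. Of 6 keratinocyte markers 3 passed the filter (Krt14, Krt10 and Sfn) and none differed 2-fold on the log2(FPKM + 1) scale as deposited. Sfn, however, was at 256% of the shLuc value before the pseudocount, and its difference was 1.27 with the GC trend removed. The keratinocyte markers summed to 13.2 FPKM in shTaz tumors and 10.6 FPKM in shLuc tumors. Krt5 and Trp63 were under 1 FPKM in both.

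For some of these genes the counting leaves doubt. The exons of Twist2 overlap Gm29100, those of Zeb1 overlap Gm10125 and those of Zeb2 overlap Zeb2os, each on the opposite strand, and whether reads were counted by strand is not given in the sources used here. Gm10125 was at 0.319 FPKM in shTaz tumors and 0.250 FPKM in shLuc tumors.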

How the data were processed

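RNA from frozen subcutaneous tumors was extracted with Trizol and sequenced on an Illumina HiSeq, per the labels' protocols and the series' design text. Trim Galore and TopHat with build mm10 are named, per the submitters' processing notes. The authors deposited FPKM values, 1 column per group. The program, annotation, strand setting and pooling of samples are not given in the sources used here. Depth is unknown. Of low values in single-transcript genes, at best 31.8% (shTaz) and 26.8% (shLuc) lay within 0.1 of a whole-read step. By chance 20% would for a single step. The shares given are the best of many steps tried, so they cannot be set against that 20%.

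Differences were log2((shTaz FPKM + 1) / (shLuc FPKM + 1)), over genes whose mean reached 1 FPKM, and a difference of 1 was called 2-fold. The scale understates changes of low genes. The planned limma test needs a column per sample and was not run. Transcript length and GC content (longest GENCODE M21 transcript, found for 91.3% of genes) gave lowess trends (span 0.3, statsmodels 0.14.6), checked on simulated data. The genes and lists were chosen with earlier results of these data known. Named genes were, in each related list, up to 4 past 2-fold or else the 2 that differed most. Of each marker list, the rule took the 3 highest and those under 1 FPKM in both columns.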

Additional observations from a re-analysis of the deposited data

How the results depend on the processing

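No paired analysis was possible because the table held 1 column per group, and for the same reason leaving out replicates was not run. Of 187 values recomputed under 9 alternatives, 7 planned and 2 added after the data were seen (no pseudocount, and removal of both trends), 172 moved by at most 1.5 times and 15 by more. Twist2 was at -3.31 with a pseudocount of 0.1 and -3.43 with none, and the median of Msc and Scx at -3.24 and -3.48, because a smaller pseudocount shrinks low values less. With both trends removed, Prrx2 was at 0.17, Tcf4 at -0.042 and Zeb2 at -0.29; the cause was not tested. The number of 2-fold higher genes, 461 as deposited, was 996 with a pseudocount of 0.1, 1045 with none, 219 over genes averaging 5 FPKM or more, 294 after quantile normalization, and 285, 161 and 204 after removal of the trends of length, of GC content and of both. The number of lower genes, 379 as deposited, was 215 over genes averaging 5 FPKM or more, where fewer genes were counted. Twist2 was the only factor past 2-fold in each of the 9. Without replicate values or depth, no difference, that of Twist2 included, can be set against an error.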

Other observations

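The genes next to Twist2 on chromosome 1 did not share its difference. The nearest listed protein-coding gene after it, Hdac4, 80751 bases away, was at 1.56 FPKM in shTaz tumors, against 1.57 FPKM in shLuc tumors. The nearest before it, Asb1, 241872 bases away, was at 2.24 FPKM in shTaz tumors, against 1.60 FPKM in shLuc tumors.

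In the promoter windows of the other genes, CACCTG, the E-box form bound by SNAIL and ZEB proteins, was found in 1 of the 7 matched genes, Snai1 itself, and in 20.2% of all windows. The TEAD motif CATTCC was found once each in windows of Zeb2 and Prrx1, and in 14.7% of all windows.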
